A study of Rattus norvegicus with 6 samples.

Results

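The mitochondrial ribosomal proteins were taken as all protein-coding records of the expression table whose symbol is Mrpl or Mrps followed by a number and at most 1 letter. The rule found 76 genes, 46 with large subunit symbols (Mrpl) and 30 with small subunit symbols (Mrps), among 22640 protein-coding records and 37991 records in all. A further 13 records are described as mitochondrial ribosomal proteins or their pseudogenes but lie outside the rule. Of these, 3 differ from it only by a lower-case first letter (mrpl9, mrpl11 and mrpl24).

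The series measured RNA of healing rat Achilles tendon, with 3 libraries of a PM group and 3 of a non-PM group. All rats were male Sprague-Dawley, 8 weeks old at the start, and all underwent Achilles tenotomy. The PM group then inhaled fine particulate matter (PM2.5, collected at a coal-fired power plant) at 3 sessions per week over 6 weeks, which the non-PM group did not. The healed part of the tendon was taken as 1 block, so each library holds RNA of every cell type in it. The labels speak of tenotomy with repair, while the methods of the study describe transection and closure of the skin only. The labels do not name the animal behind each library, while the methods of the study give 3 tendons per group for RNA sequencing and 1 operated leg per rat.

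Mitochondrial ribosomes translate the few proteins encoded by mitochondrial DNA, all of them core subunits of the respiratory chain and ATP synthase. Their proteins are encoded in the nucleus, made in the cytosol and imported, and assemble with ribosomal RNA made inside the mitochondrion. Some descend from proteins of the bacterial ribosome, and others were added in the mitochondrial lineage. Slow skeletal muscle, which relies on oxidative metabolism, is rich in mitochondria, whereas tendon is comparatively poor in them.

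A RefSeq promoter (250 bases before to 50 bases after the gene start, GRCr8 build) was matched to 61 of the 76 genes. The core letters AAGATGGC of the YY1 motif, searched on both strands, stood in 15 of these 61 promoters (24.6%), against 3.44% of 27457 RefSeq promoters and 4.87% of the 12894 promoters of genes tested. In 11 of the 15 the core began at or after the gene start, and in 13 the core read as written on the gene's strand. The letters contain ATG, and whether that is the start codon was not examined. The 5 windows below, each of 30 bases around the core, belong to genes whose fold changes are given further on. They are shown because they share these letters, in capitals. They lie on the gene's strand at chr10:101342637-101342666 (+), chr9:21122405-21122434 (-), chr9:22367362-22367391 (-), chr20:2843023-2843052 (+) and chr2:52195868-52195897 (-), in the order printed.
Mrps7: tgatagcggccAAGATGGCtgcccccgcac
Mrps10: gtcagggcaccAAGATGGCggcgcgcgcag
Mrps18a: ggtgtgttcccAAGATGGCggccctcaggg
Mrps18b: ggatgtgcgacAAGATGGCtgcctccttgc
Mrps30: cgcggaggacaAAGATGGCggctgccaggt

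The NRF1 core GCATGCGC stood in 5 of the 61 promoters (8.2%, against 4.35% of the promoters of genes tested), and the ETS core CCGGAAGT stood in 8 (13.1% against 6.98%). The CCAAT box, a short motif, stood in 26 (42.6% against 37.2%). NRF1 and the ETS factor GABP (nuclear respiratory factor 2) are known activators of nuclear genes for mitochondrial proteins. The 80 bases before the start of Mrpl17 at chr1:169575700-169575779 (-) and of Mrps18b at chr20:2842926-2843005 (+) show NRF1 cores in capitals, overlapping on the 2 strands in both. The 80 bases before Mrpl4, the gene with the largest difference between the groups, at chr8:27815691-27815770 (+) hold neither the NRF1 nor the ETS core, but carry the CCAAT box in reverse (attgg). A match is a run of letters only, and no binding was measured.
Mrpl17: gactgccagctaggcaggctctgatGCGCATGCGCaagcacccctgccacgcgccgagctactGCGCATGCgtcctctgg
Mrps18b: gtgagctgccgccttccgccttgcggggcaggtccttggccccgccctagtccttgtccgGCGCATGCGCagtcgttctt
Mrpl4: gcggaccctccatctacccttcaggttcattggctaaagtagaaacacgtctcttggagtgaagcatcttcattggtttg

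The 6 libraries held 46357986 to 62298837 counts, and 18134 genes passed the filter on low counts. Non-PM replicate 3 stood apart. Its TMM factor (the scaling that evens out composition between libraries) was 0.791 against 0.965 to 1.16 in the others, its 12 tendon markers took 0.625% of counts against 4.09% to 7.82%, and its 27 skeletal muscle markers took 11.8% against 2.50% to 9.29%. Non-PM replicate 2 held keratinocyte markers at a summed 727 CPM, against at most 10.97 CPM in every PM library. Every marker of the muscle and tendon lists had counts in every library. Results below are given with non-PM replicate 3 and, where it matters, without it.

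The mitochondrial ribosomal protein genes were moderately and evenly expressed. Their mean FPKM, a level per transcript length, had a median of 18.2 over the 76 genes, against 4.48 over all genes tested, and 57 of the 76 lay between 10 and 40 FPKM. The highest were Mrpl54 at 79.7 FPKM, Mrpl17 at 72.0 FPKM, Mrpl33 at 56.8 FPKM and Mrps21 at 51.5 FPKM. Mrpl17, Mrpl33 and Mrps21 have bacterial counterparts, whereas Mrpl54 belongs to the proteins that mitochondria added. By library, in the order of replicates 1 to 3 used throughout, Mrpl54 was at 65.8, 81.3 and 53.1 FPKM in PM and at 93.2, 68.0 and 117 FPKM in non-PM, so the groups overlapped. Mrpl17 was at 73.7, 72.5 and 60.3 FPKM in PM and at 77.4, 73.6 and 74.4 FPKM in non-PM. The ranges of Mrpl54 and Mrpl17 overlapped across libraries, and their order at the top is not fixed by these data.

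At the low end, Mrps21l was close to 0, with 2 to 5 counts per library, and was the only one of the 76 left out by the filter. The next were Mrpl1 at 3.84 FPKM, Mrpl30 at 5.18 FPKM and Mrps28 at 5.59 FPKM. Mrpl1 is the protein of the ribosome's L1 stalk, and the table holds a second record described as Mrpl1-like with 2657 counts over the 6 libraries. Mrpl30 likewise has a second record under another symbol with 3503 counts. How the counting divided reads between such near copies was not given in the sources used here, so the levels of Mrpl1, Mrpl30, Mrpl36, Mrpl40 and Mrpl53 are uncertain. The rank order of the genes was alike in all libraries, with Spearman's rho of FPKM across 75 genes between 0.884 and 0.977 for pairs of libraries (genes are not independent replicates). The ratio of summed Mrpl to summed Mrps FPKM stayed between 1.81 and 1.90 in all 6.

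**Figure D1:**
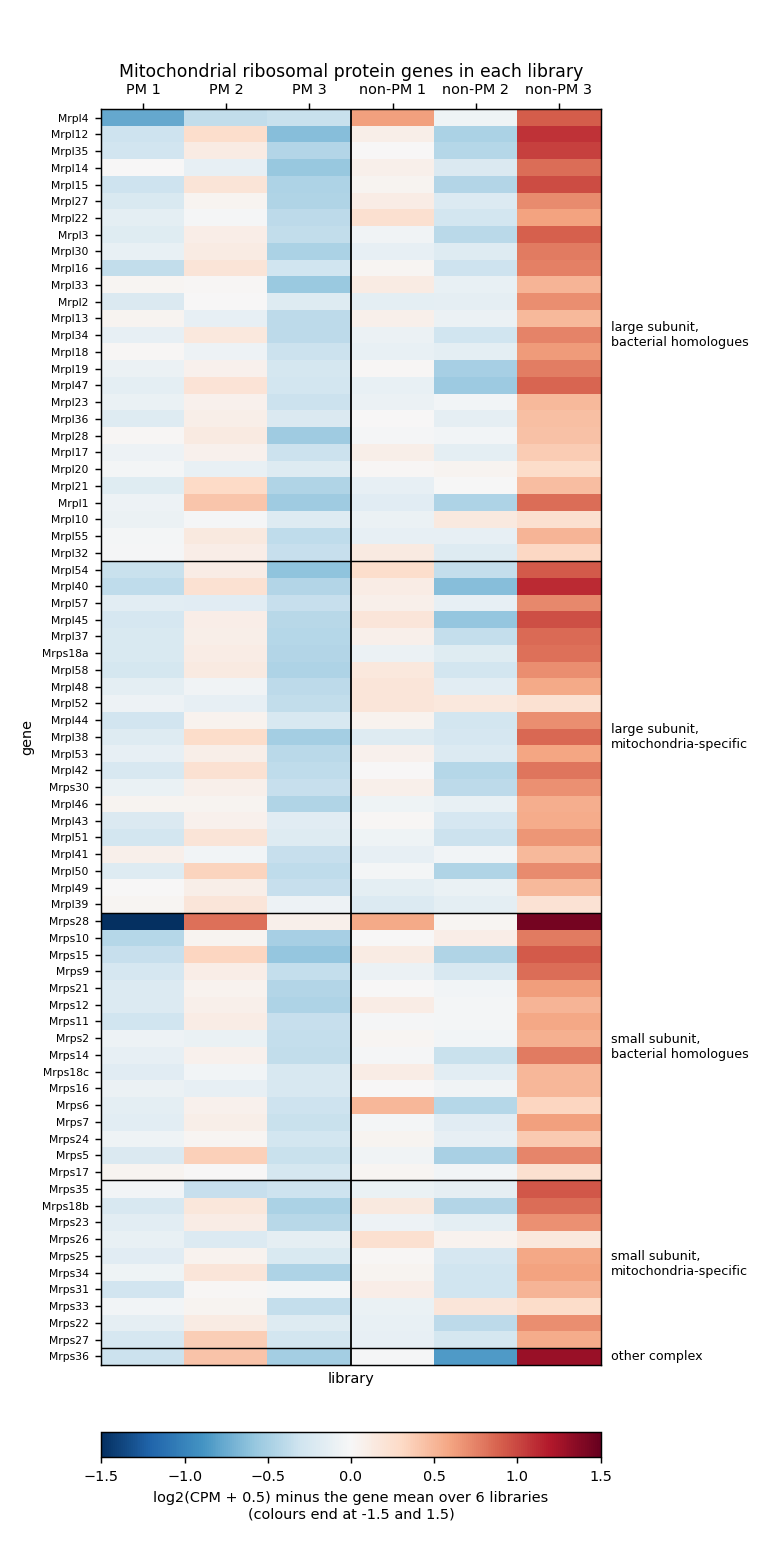
Level of each of the 75 genes tested in each library, as log2(CPM + 0.5) minus the gene's mean over the 6 libraries, with genes in rows by role and libraries in columns. The column of non-PM replicate 3 is the highest for 73 of the 75 genes and the column of PM replicate 3 is the lowest for 51.

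The question of the design was whether these genes differed between PM and non-PM tendon. With all 6 libraries the fitted log2 fold change (PM against non-PM) was below 0 for 74 of the 75 genes tested, against 50.5% of all genes tested. The median was -0.34, against -0.00 over all genes tested, and the values ran from -1.03 for Mrpl4 to 0.08 for Mrpl39. No gene passed the adjusted threshold, neither among these 75 nor among all 18134 (edgeR quasi-likelihood test with Benjamini-Hochberg adjustment, smallest adjusted p = 0.942). The unadjusted p was under 0.05 for 537 of all genes tested, and DESeq2 called 8 genes after adjustment, none of them a mitochondrial ribosomal protein. By the relaxed criterion of the study's methods (unadjusted p under 0.05 and a fold change of at least 1.2), 3 of the 75 were lower in PM (Mrpl4, Mrpl52 and Mrps26), against 1.49% of all genes tested. By the same criterion 0 were higher, against 1.47%. In bulk RNA, fewer cells of a type and less RNA per cell cannot be told apart.

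Single genes were measured with limited precision. The SE of a log2 fold change had a median of 0.27 over the 75 genes, and 20 of them had a fold change smaller than its SE, while 55 had a larger one. All 3 PM libraries lay below all 3 non-PM libraries in CPM (counts scaled to a common, TMM-adjusted library total) for 7 of the 75, against 4.91% of all genes tested. These were Mrpl4, Mrpl20, Mrpl52, Mrpl57, Mrps2, Mrps16 and Mrps26. For 0 of the 75 did all PM libraries lie above, against 4.77%. In FPKM the groups of Mrpl20, Mrpl52 and Mrps26 overlapped.

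The difference between the groups turned on non-PM replicate 3. It was the highest library for 73 of the 75 genes in CPM, against 29.8% of all genes tested, and its CPM was 1.72 times the mean of the other 5 libraries at the median, with a range of 1.13 to 2.82. On plain library totals it was highest for 59 genes (15.2% of all genes tested), and in FPKM for 60 (15.4%). PM replicate 3 was the lowest library for 51 genes in CPM, and non-PM replicate 2 was the lowest for 16. The summed level of all members was 1649.9, 1993.7 and 1429.5 CPM in PM and 1934.7, 1582.5 and 3057.7 CPM in non-PM libraries. Apart from non-PM replicate 3, the non-PM values lay within the range of the PM values.

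Without non-PM replicate 3 the median log2 fold change was -0.04, and 52 of the 75 genes were below 0, against 50.5% of all genes tested. The sign turned from below to above 0 for 22 genes, and 60 genes had a fold change smaller than its SE. The same 3 genes, Mrpl4, Mrpl52 and Mrps26, were lower by the relaxed criterion, against 2.94% of all genes tested, and 0 were higher, against 1.48%. All PM libraries lay below non-PM replicates 1 and 2 for 7 genes, against 10.7%. Leaving out any other single library gave a median between -0.49 and -0.22. Without non-PM replicate 2, 11 genes were lower by the relaxed criterion, against 3.38% of all genes tested. The highest library exceeded the lowest by 2.09 times at the median gene with all libraries and by 1.46 times without non-PM replicate 3, and the number of genes with a ratio over 2 went from 42 to 3.

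**Figure D2:**
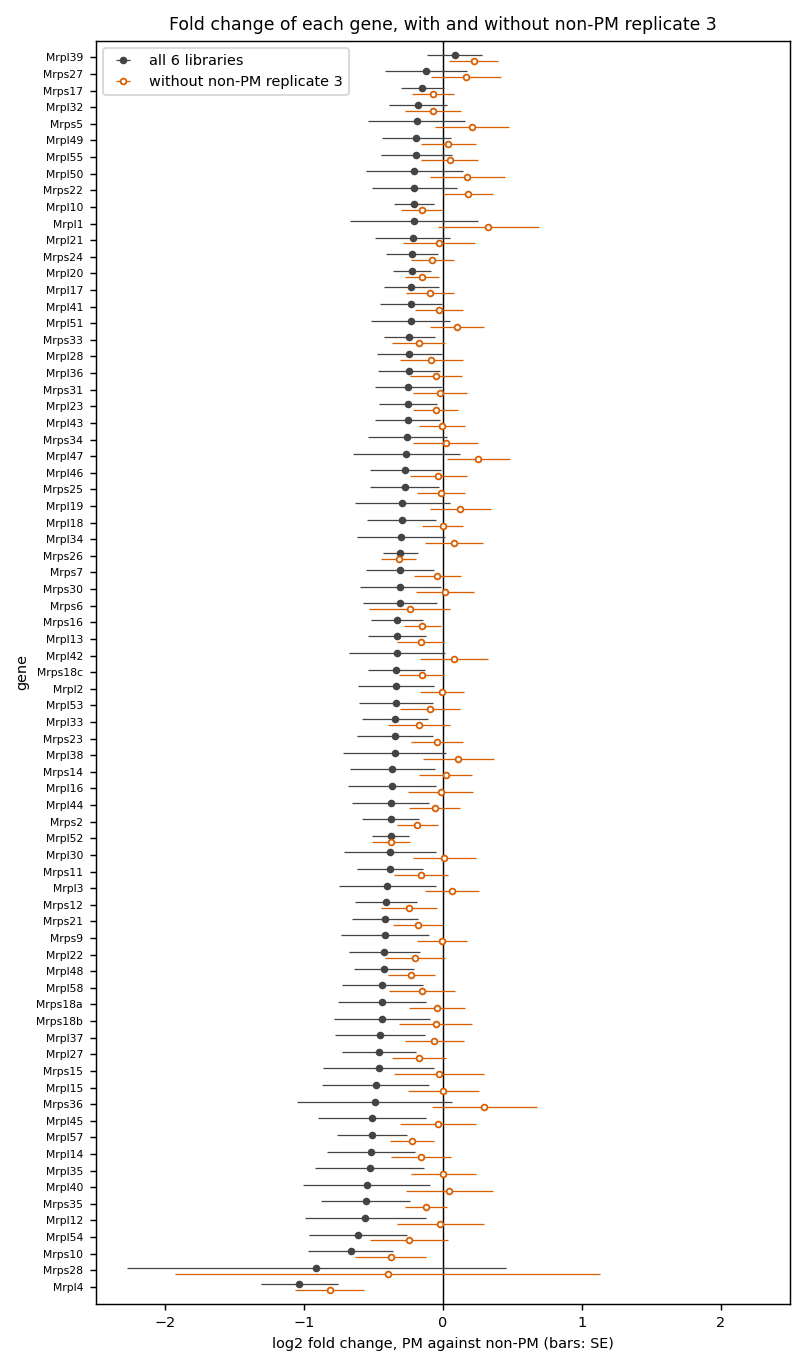
Log2 fold change of PM against non-PM for each of the 75 genes tested, with its SE, from all 6 libraries (filled) and without non-PM replicate 3 (open). The filled points lie below 0 for 74 genes with a median of -0.34, and the open points lie below 0 for 52 with a median of -0.04.

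Mrpl4, a large subunit protein whose bacterial counterpart lines the exit tunnel of the ribosome, differed most. It was at 16.4, 21.8 and 22.4 CPM in PM and at 43.5, 27.0 and 53.5 CPM in non-PM. All PM libraries were below all non-PM libraries, and the gap did not rest on non-PM replicate 3. It averaged 20.2 ± 3.30 CPM with PM exposure against 41.3 ± 13.4 CPM without (SD, n = 3 each). The log2 fold change was -1.03 ± 0.28 (SE), with an unadjusted p of 0.0081 and an adjusted p of 0.942 in the edgeR test across all genes. Without each library in turn it ran from -1.26 to -0.81, and the unadjusted p in the edgeR fit stayed under 0.05 each time, at most 0.034.

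Mrpl52, a mitochondria-specific protein of the large subunit, was at 36.1, 34.8 and 29.4 CPM in PM and at 43.3, 42.6 and 44.5 CPM in non-PM. In CPM the groups did not overlap, and the non-PM libraries lay close together. In FPKM its PM replicate 1 (33.6) lay above non-PM replicate 3 (30.8). Its log2 fold change was -0.38 ± 0.13, with an unadjusted p of 0.028 and an adjusted p of 0.942 by edgeR. Mrps26, a mitochondria-specific protein of the small subunit, was at 23.9, 22.4 and 23.5 CPM in PM and at 30.7, 26.9 and 28.9 CPM in non-PM. Here too the groups did not overlap in CPM, and non-PM replicate 1, not 3, was the highest. In FPKM its PM replicates 1 and 3 (23.6 and 22.7) lay above non-PM replicate 3 (21.2). Its log2 fold change was -0.31 ± 0.13, with an unadjusted p of 0.048 and an adjusted p of 0.942 by edgeR. Both values hardly moved without non-PM replicate 3 (-0.38 for Mrpl52 and -0.32 for Mrps26). Mrpl52 no longer met the criterion once PM replicate 2 or 3 or non-PM replicate 1 or 2 was left out, and Mrps26 no longer met it once any library other than non-PM replicate 3 was left out.

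**Figure D3:**
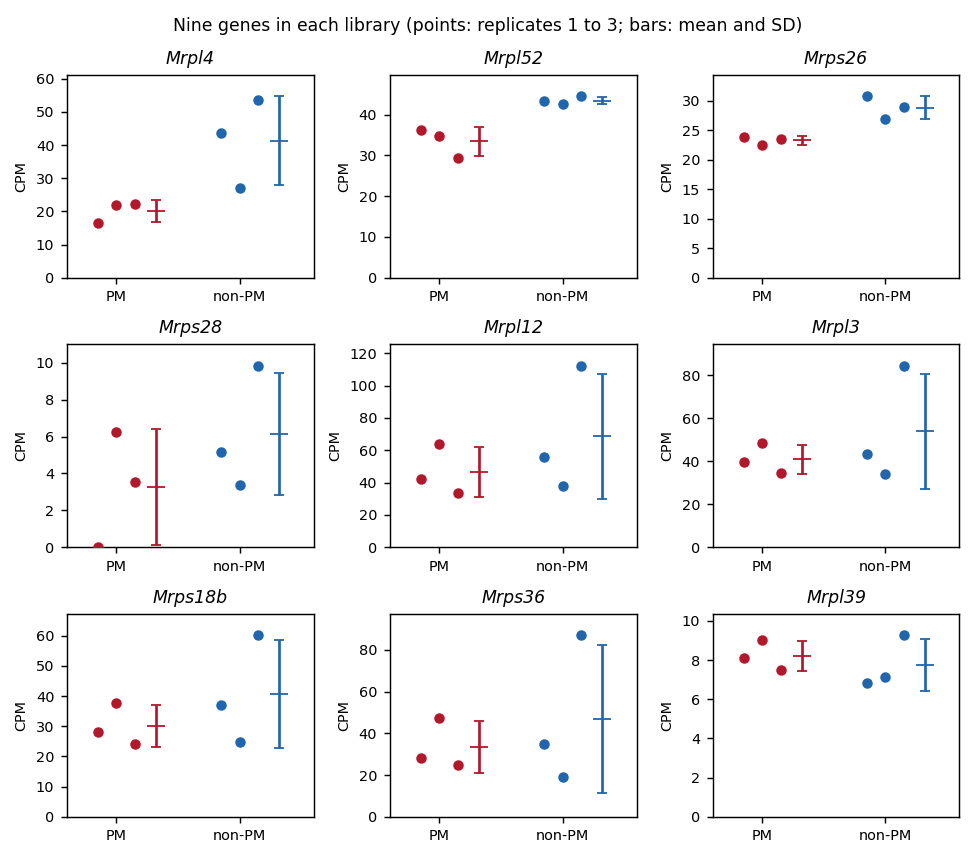
CPM of 9 genes in each library (points, replicates 1 to 3 from left to right within a group), with the mean and SD of each group beside them. For Mrpl4, Mrpl52 and Mrps26 all PM points lie below all non-PM points. For Mrpl12, Mrpl3, Mrps18b and Mrps36 the highest point is non-PM replicate 3 and the others overlap. Mrps28 is at 0 in PM replicate 1, and the groups of Mrpl39 overlap through non-PM replicate 3 only.

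The grouping used here counted 27 large subunit proteins as having bacterial counterparts. Its assignments, that of Mrpl55 to these 27 among them, were not checked against protein sequences. All 27 had a fold change below 0, with a median of -0.30, or -0.03 without non-PM replicate 3. Only Mrpl4 met the relaxed criterion. Mrpl12, which forms the flexible stalk where translation factors dock, was at 42.5, 63.7 and 33.7 CPM in PM and at 56.0, 37.9 and 112 CPM in non-PM. Except for non-PM replicate 3, which was at 2.40 times the mean of the others, the groups overlapped, and the log2 fold change went from -0.56 ± 0.44 to -0.02 ± 0.31 without it. Mrpl10, which anchors that stalk, varied little. It was at 25.6, 26.9 and 23.6 CPM in PM and at 25.6, 30.3 and 32.1 CPM in non-PM, with a log2 fold change of -0.21 ± 0.15. The 2 stalk partners thus had different spreads, with SDs of log2 CPM over the 6 libraries of 0.63 for Mrpl12 and 0.17 for Mrpl10.

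Mrpl3 and Mrpl2, core proteins near the peptidyl transferase centre, had log2 fold changes of -0.40 ± 0.35 and -0.34 ± 0.27. Without non-PM replicate 3 they were 0.07 ± 0.19 and -0.01 ± 0.16. Mrpl20 had the narrowest spread of the 75 genes (SD of log2 CPM 0.16) and was at 29.1, 27.6 and 25.9 CPM in PM and at 30.02, 30.6 and 35.9 CPM in non-PM. All its PM values lay below its non-PM values in CPM, but by little, and the log2 fold change was -0.22 ± 0.14. In FPKM its PM replicate 1 (36.6) lay above non-PM replicates 1 and 3 (35.3 and 33.6). Mrpl1 went from -0.21 ± 0.46 to 0.33 ± 0.36 without non-PM replicate 3, and Mrpl30 from -0.38 ± 0.33 to 0.01 ± 0.23. Neither Mrpl1 nor Mrpl30 had a value that exceeded its SE without that library. Mrpl17 and Mrpl33 were at -0.23 ± 0.20 and -0.35 ± 0.24.

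In the same grouping the mitochondria-specific large subunit proteins numbered 21. They include Mrps18a and Mrps30, which carry small subunit symbols but sit in the large subunit. Of these 21, 20 were below 0, with a median of -0.35, or -0.03 without non-PM replicate 3. Mrpl52 alone met the relaxed criterion. Mrpl40 was among the most variable, at 21.4, 32.9 and 20.6 CPM in PM and at 30.2, 17.9 and 61.7 CPM in non-PM. Its highest and its lowest library were both non-PM, and its log2 fold change was -0.55 ± 0.46, or 0.05 ± 0.31 without non-PM replicate 3. Mrpl45, which lies near the exit tunnel and links the ribosome to the inner membrane, was at 36.0, 46.0 and 31.9 CPM in PM and at 48.8, 28.5 and 84.7 CPM in non-PM. The log2 fold change of Mrpl45 was -0.51 ± 0.39, or -0.04 ± 0.27 without that library.

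Mrpl57 was at 12.3, 12.2 and 10.7 CPM in PM and at 14.6, 12.6 and 23.1 CPM in non-PM, a small separation of the groups apart from non-PM replicate 3. Its log2 fold change was -0.51 ± 0.25 (unadjusted p 0.086 and adjusted p 0.942 by edgeR), or -0.22 ± 0.16 without that library. Mrpl54, the highest in mean FPKM, was at -0.62 ± 0.35, or -0.24 ± 0.28. Mrpl44, related to RNase III enzymes, was at -0.38 ± 0.28, Mrpl41 at -0.23 ± 0.22, and Mrps30 at -0.31 ± 0.29. Mrpl39, related to threonyl-tRNA synthetase, was the sole gene above 0. It was at 8.11, 9.03 and 7.47 CPM in PM and at 6.81, 7.14 and 9.26 CPM in non-PM. The groups overlapped in CPM through non-PM replicate 3 only. The log2 fold change of Mrpl39 was 0.08 ± 0.20, or 0.22 ± 0.18 without that library.

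Small subunit proteins with bacterial counterparts (16 genes tested) were all below 0, with a median of -0.37, or -0.15 without non-PM replicate 3, and none met the relaxed criterion. Mrps10 was at 4.30, 6.12 and 4.07 CPM in PM and at 5.97, 6.44 and 10.6 CPM in non-PM, with PM replicate 2 above non-PM replicate 1. Its log2 fold change was -0.66 ± 0.30 (unadjusted p 0.068 and adjusted p 0.942 by edgeR), or -0.38 ± 0.26 without non-PM replicate 3. Mrps12, a protein of the decoding centre, was at 13.2, 16.0 and 10.96 CPM in PM and at 16.5, 14.9 and 22.0 CPM in non-PM. The groups overlapped by PM replicate 2, and the log2 fold change was -0.41 ± 0.22, or -0.25 ± 0.20.

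Mrps2 was at 19.3, 19.1 and 15.9 CPM in PM and at 20.8, 19.9 and 29.8 CPM in non-PM, which did not overlap but differed by less than 1 CPM at the boundary. Its log2 fold change was -0.38 ± 0.20. Mrps7 was at -0.31 ± 0.25, Mrps15 at -0.46 ± 0.40, Mrps21 at -0.42 ± 0.24 and Mrps17, a gene of narrow spread, at -0.15 ± 0.16. Mrps28 was unlike all others. It had 0 counts in PM replicate 1 and 337 and 201 in PM replicates 2 and 3, against 277, 179 and 444 in non-PM. With PM replicate 1 the log2 fold change was -0.91 ± 1.37, and without it -0.32 ± 0.54. Every other tested gene of the family had a value above 0 in that library, and whether the 0 is a failed estimate of the upstream processing was not tested.

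The mitochondria-specific small subunit proteins (10 genes) were all below 0, with a median of -0.27, or -0.03 without non-PM replicate 3, and Mrps26 alone met the relaxed criterion. Mrps22 and Mrps34, in which human mutations cause respiratory chain deficiency, were at -0.21 ± 0.31 and -0.26 ± 0.29, and at 0.18 ± 0.18 and 0.02 ± 0.24 without that library. The mammalian ribosome has 3 homologues of bacterial S18, of which Mrps18b and Mrps18c sit in the small subunit and Mrps18a in the large one. In the grouping used here only Mrps18c was counted among the proteins with bacterial counterparts, and Mrps18a and Mrps18b were counted as mitochondria-specific despite that homology. Mrps18b was at 28.2, 37.8 and 24.03 CPM in PM and at 37.1, 24.7 and 60.1 CPM in non-PM, with overlap. The log2 fold changes of Mrps18a, Mrps18b and Mrps18c were -0.44 ± 0.32, -0.44 ± 0.35 and -0.34 ± 0.21, alike within their SEs.

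Mrps36 carries the family's symbol but is now assigned to the 2-oxoglutarate dehydrogenase complex of the citric acid cycle. It was at 28.1, 47.5 and 24.6 CPM in PM and at 34.7, 19.3 and 86.9 CPM in non-PM. It had the largest excess of non-PM replicate 3 in the family, at 2.82 times the mean of the other libraries, and its lowest library was non-PM replicate 2. The log2 fold change was -0.49 ± 0.56, or 0.30 ± 0.38 without non-PM replicate 3.

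Promoter letters and fold changes were set side by side for the 61 genes with a promoter. The median log2 fold change was -0.31 for the 15 genes with the YY1 core and -0.34 for the 46 without it. It was -0.38 for the 5 genes with the NRF1 core and -0.34 for the 56 without it, and -0.36 for the 8 genes with the ETS core and -0.33 for the 53 without it. Of the genes past the relaxed criterion, Mrpl4 held a CCAAT box, Mrpl52 an ETS core, and Mrps26 an ETS core and a CCAAT box. These are descriptions with no test.

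Non-PM replicate 3, the highest library of the family, was also the extreme library for skeletal muscle and tendon markers. The other libraries ranked differently between these lists, and the muscle list mixes markers of fast and slow fibres. The family's share of counts was 0.175%, 0.192% and 0.150% in PM and 0.196%, 0.180% and 0.242% in non-PM. The muscle markers took 3.47%, 9.29% and 5.40% in PM and 5.09%, 2.50% and 11.8% in non-PM. Non-PM replicate 3 was the highest and PM replicate 2 the second in muscle markers, whereas in the family's share PM replicate 2 was below non-PM replicate 1. That order depended on the unit. In summed CPM the family was at 1993.7 in PM replicate 2 and at 1934.7 in non-PM replicate 1, so PM replicate 2 was second there too. PM replicate 3, the lowest in the family's share, was above non-PM replicate 1 in muscle markers. The tendon markers took 4.09%, 4.42% and 7.82% in PM and 6.82%, 5.51% and 0.625% in non-PM, with the lowest value in non-PM replicate 3 and the highest in PM replicate 3, the reverse of the family at both ends.

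The libraries also differed in kind of muscle. Myh7, the myosin heavy chain of slow fibres, was at 6741, 9996 and 5371 CPM in PM and at 10430, 5039 and 30307 CPM in non-PM, with non-PM replicate 3 far above the rest. Non-PM replicate 3, non-PM replicate 1 and PM replicate 2 led in Myh7, in that order, as in the family's share of counts. In the family's summed CPM the order differed, with PM replicate 2 (1993.7) ahead of non-PM replicate 1 (1934.7). The remaining libraries ranked differently, and whether the family follows slow muscle was not tested. Myh4, that of the fastest fibres, was at 26.9, 6343 and 6016 CPM in PM and at 26.3, 14.6 and 64.1 CPM in non-PM, so it was high in PM replicates 2 and 3 only.

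With a muscle score (the mean of the muscle markers' log2 CPM, each standardised over the libraries) as a covariate in edgeR, the family's median log2 fold change was -0.38 and 74 of 75 genes were below 0, against 47.2% of all genes tested. By the relaxed criterion 28 of the 75 were lower in PM, against 5.6% of all genes tested, and 0 were higher, against 7.57%. In that fit 0 genes of the whole table passed adjustment. That count rested on single libraries. With PM replicate 1, 2 or 3 left out it was 62 (12.5% of all genes tested), 6 (1.91%) and 6 (1.52%). With non-PM replicate 1, 2 or 3 left out it was 19 (4.14%), 20 (4.35%) and 1 (2.51%). Without non-PM replicate 3 the fit had a median of -0.20 and 72 of 75 genes below 0. The score weighs each marker alike whatever its fibre type, and the slow fibre part was not tested.

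**Figure D4:**
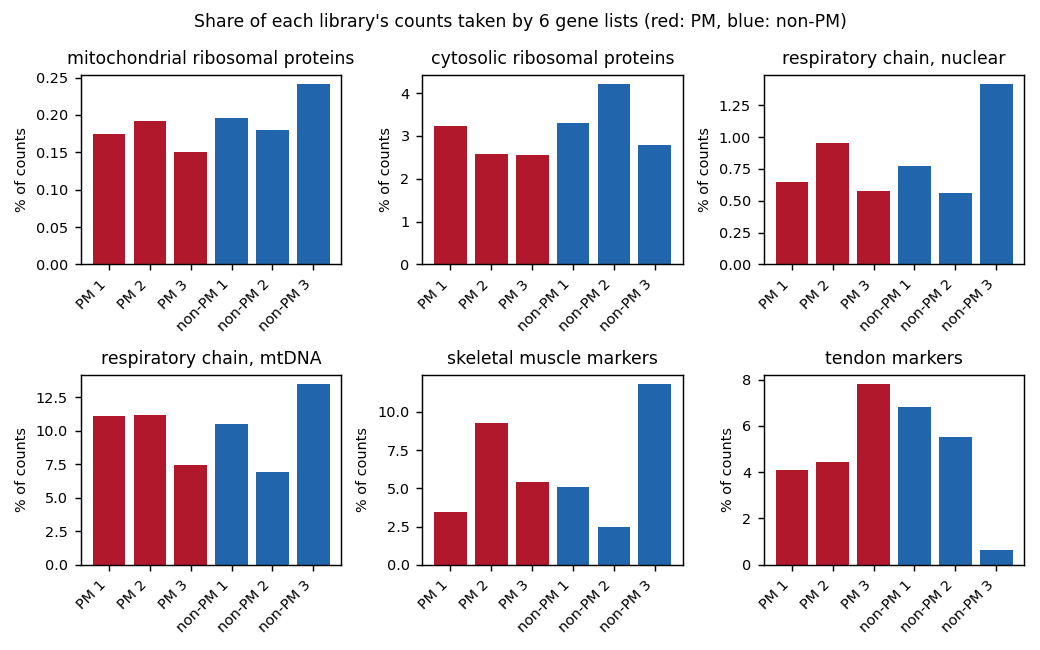
Percent of each library's counts taken by 6 gene lists (bars, from 0), with PM libraries in red and non-PM libraries in blue. Non-PM replicate 3 has the highest share of mitochondrial ribosomal protein counts (0.242%) and of skeletal muscle marker counts (11.8%) and the lowest share of tendon marker counts (0.625%).

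Genes of the same pathway were followed as lists. The 8 mitochondrial ribosomal proteins with other symbols were all below 0 with a median of -0.31, or -0.08 without non-PM replicate 3. Among them Ptcd3, a small subunit protein that contacts the messenger RNA, was at 40.7, 50.3 and 38.0 CPM in PM and at 48.9, 58.5 and 64.5 CPM in non-PM. The groups overlapped by PM replicate 2, and the log2 fold change was -0.42 ± 0.18, or -0.34 ± 0.18 without non-PM replicate 3. Aurkaip1, another small subunit protein, was at -0.33 ± 0.15, or -0.24 ± 0.14. Neither met the relaxed criterion.

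Of the 26 assembly factors, 23 were below 0 with a median of -0.20, or 0.01 without non-PM replicate 3. The 15 translation factors had 14 below 0 with a median of -0.23, or 0.10. Oxa1l, which inserts the newly made proteins into the inner membrane, was at 61.5, 84.3 and 56.9 CPM in PM and at 74.6, 67.8 and 141 CPM in non-PM. Except for non-PM replicate 3 its groups overlapped, and its log2 fold change was -0.48 ± 0.33, or -0.09 ± 0.21. The 27 import genes were all below 0 with a median of -0.33, or 0.01. None of these lists held a gene past the relaxed criterion in either direction.

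Genes that make or regulate mitochondrial RNA followed. The 9 transcription genes had a median of -0.16, or 0.01 without non-PM replicate 3, and Tfam, the packaging and transcription factor of mitochondrial DNA, was at -0.39 ± 0.30, or -0.02 ± 0.19. The 10 regulators of mitochondrial biogenesis had 5 above and 5 below 0 with a median of -0.03, but 2 below 0 and a median of 0.22 without non-PM replicate 3. Gabpa, the DNA-binding subunit of GABP, was at 44.7, 35.7 and 48.1 CPM in PM and at 34.6, 33.1 and 33.7 CPM in non-PM. All PM libraries lay above all non-PM libraries in CPM, as for 4.77% of all genes tested. On plain library totals PM replicate 2 lay below non-PM replicate 2. The log2 fold change of Gabpa was 0.34 ± 0.15 with an unadjusted p of 0.062 and an adjusted p of 0.942 by edgeR.

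The products of mitochondrial translation and their nuclear partners were compared with the family. The 44 nuclear respiratory chain genes were all below 0, with a median of -0.52, or 0.13 without non-PM replicate 3. The 13 genes encoded by mitochondrial DNA had 9 below 0, with a median of -0.12, or 0.20. Counts of nuclear respiratory chain genes per count of the family were 3.71, 4.97 and 3.82 in PM and 3.96, 3.11 and 5.87 in non-PM. The highest ratio was again in non-PM replicate 3 and the second in PM replicate 2. Counts of genes encoded by mitochondrial DNA per count of the family were 63.2, 57.9 and 49.3 in PM and 53.6, 38.4 and 55.8 in non-PM, and these overlapped.

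The cytosolic ribosomal proteins did not follow the same libraries. Their median over 85 genes tested was -0.35 with all libraries and -0.37 without non-PM replicate 3. In CPM all PM libraries lay below all non-PM libraries for 59 of the 85, against 4.91% of all genes tested. That separation depended on the unit. Their share of counts was 3.24%, 2.58% and 2.55% in PM and 3.31%, 4.22% and 2.79% in non-PM, with PM replicate 1 above non-PM replicate 3. Counts of cytosolic per count of mitochondrial ribosomal proteins were 18.5, 13.4 and 16.9 in PM and 16.9, 23.4 and 11.5 in non-PM. Non-PM replicate 2 had the highest and non-PM replicate 3 the lowest ratio, so the non-PM group enclosed the PM group. The difference of the 2 families in response to non-PM replicate 3 was not tested.

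**Figure D5:**
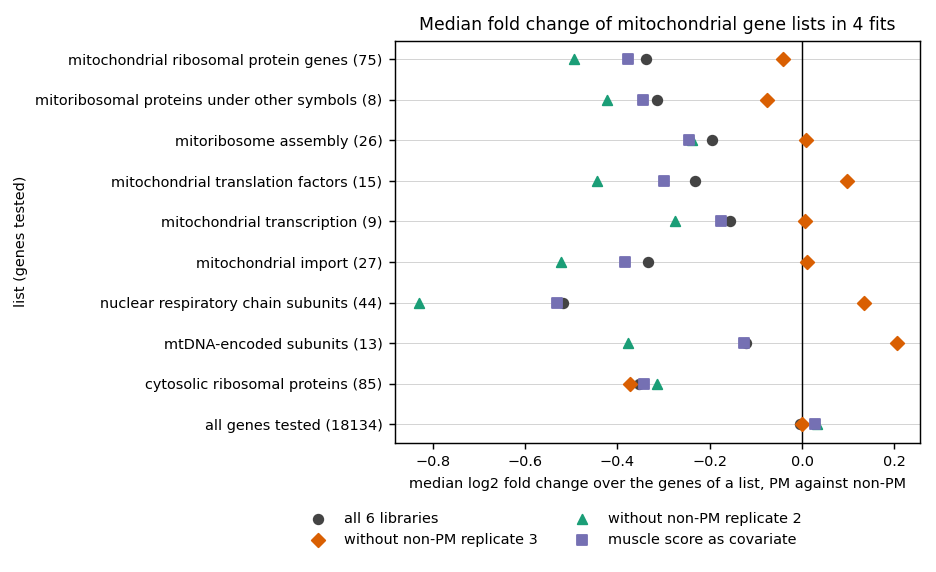
Median log2 fold change (PM against non-PM) over the genes of each list in 4 fits, with lists in rows and the number of genes tested in parentheses. The median of the mitochondrial ribosomal proteins is -0.34 with all libraries and -0.04 without non-PM replicate 3, while that of the cytosolic ribosomal proteins is -0.35 and -0.37.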

How the data were processed

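RNA of 3 PM and 3 non-PM tendons was sequenced as read pairs from stranded poly(A) libraries. The submitters' notes name FastQC 0.11.7, Trimmomatic 0.38, HISAT2 2.1.0 and the Rnor_6.0 genome, and the study names StringTie. The deposited table gives whole-number counts per gene and FPKM values that the authors computed. The way reads were assigned to genes was not given in the sources used here.

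Counts entered edgeR 4.0.16 under R 4.3.3 (filterByExpr on group, TMM factors, two-sided quasi-likelihood test, Benjamini-Hochberg adjustment over the 18134 genes tested). The SE of a log2 fold change is its size divided by the root of the F statistic. Alternatives used DESeq2 1.42.0, limma 3.58.1 on log2(FPKM + 1) or log2(FPKM + 0.1), other factors or filters, a replicate block, a muscle covariate and leaving out libraries. Counting intervals were narrow: the Wilson interval of the family's share spanned at most 0.00255 percentage points and covers counting error only.

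Members and lists were chosen with earlier results of these data known. Named members are 19 symbols picked by role (Mrpl11 was found only as lower-case mrpl11), those past the relaxed criterion, the 5 of smallest p in each direction, the 4 of highest and 4 of lowest FPKM, and the 3 of widest and 3 of narrowest spread. Of each related list the 2 genes of smallest p could be named. Library columns were matched to sample titles, and no 2 libraries agreed within counting error.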

Additional observations from a re-analysis of the deposited data

How the results depend on the processing

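The family's median log2 fold change kept its sign under every alternative tried. It was -0.34 with all libraries, between -0.49 and -0.041 when each library was left out (-0.041 without non-PM replicate 3), and -0.29 with the replicate block. The sign count stayed at 72 to 75 of the genes tested except without non-PM replicate 3 (52). The number of genes lower by the relaxed criterion was 3, and 2 without the filter on low counts and in each limma fit on FPKM. It was 1 on library totals without normalization factors, 1 with the replicate block and 28 with the muscle covariate. When each library was left out it was 1 to 11 (11 without non-PM replicate 2). Under the muscle covariate with a library left out it was 62, 6 and 6 without PM replicates 1, 2 and 3 and 19, 20 and 1 without non-PM replicates 1, 2 and 3, and the median was -0.58 without PM replicate 1. Library totals and the covariate with a library left out were chosen after seeing the data.

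Genes of the whole table past adjustment numbered 0 with edgeR, 8 with DESeq2, and 14 with the covariate and without non-PM replicate 1. All genes lower and higher by the relaxed criterion numbered 271 and 266, and ran from 60 (mean FPKM of at least 1) and 76 (replicate block) to 2326 and 2135 (covariate without PM replicate 1). The scale log2(FPKM + 0.1) moved the median of all genes tested to 0.10, where the family's was -0.21.

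Signs turned when a library was left out, with ranges of -0.52 to 0.33 for Mrpl1, -0.64 to 0.065 for Mrpl3, -0.56 to 0.0070 for Mrpl30, -0.0090 to 0.22 for Mrpl39, -0.88 to 0.046 for Mrpl40, -0.42 to 0.18 for Mrps22, -0.53 to 0.016 for Mrps30, -0.45 to 0.018 for Mrps34, -0.86 to 0.30 for Mrps36 and -0.54 to 0.14 for COX2. With the covariate, Mrpl39 was at -0.035 when PM replicate 1 and -0.031 when non-PM replicate 1 was left out, and Mrpl41 was at 0.029 without non-PM replicate 3. Same-numbered libraries did not deviate together (correlations -0.171, -0.386 and -0.308). With 3 libraries a group, each centred on its group mean, this cannot settle whether the numbers pair the samples. Total counts of 46357986 or more leave counting error small beside the spread between libraries, and 3 libraries a group limit every test.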

Other observations

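Among the other lists, the 8 endothelial markers had fold changes above 0 with all libraries, with a median log2 fold change of 0.33, or 0.39 without non-PM replicate 3. Without PM replicate 1 the median was 0.17 and 2 of the 8 were below 0. Tek, the angiopoietin receptor, was at 119, 88.5 and 99.2 CPM in PM and at 67.7, 78.3 and 74.8 CPM in non-PM. All its PM libraries lay above all non-PM libraries in CPM, as for 4.77% of all genes tested. On plain library totals its PM replicate 2 lay below non-PM replicate 2. Its log2 fold change was 0.47 ± 0.17, with an unadjusted p of 0.031 in the edgeR test, in which no gene of the table passed adjustment. No endothelial marker met the relaxed criterion once PM replicate 1 or 3 or non-PM replicate 1 was left out. Uqcrq, a subunit of respiratory complex III, had the smallest unadjusted p of the nuclear respiratory chain genes. It was at 69.3, 81.0 and 50.6 CPM in PM and at 98.5, 63.6 and 191 CPM in non-PM, with a log2 fold change of -0.81 ± 0.42, or -0.29 ± 0.27 without non-PM replicate 3. ND4L, encoded by mitochondrial DNA, was at 957, 1071 and 847 CPM in PM and at 770, 452 and 1013 CPM in non-PM, with a log2 fold change of 0.36 ± 0.36.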
